A study of Mus musculus with 3 samples.

Results

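The cells described here are kidney barcodes that carried at least 2 UMIs summed over 6 genes, *Usp29*, *Ube2cbp*, *Slc34a2*, *Creb5*, *Grik1* and *Klhl14*, and at least 2 of these genes. No more than 50% of their counts came from mitochondrially encoded genes. Of 22679 barcodes in 3 single-cell libraries, 22063 were within the mitochondrial limit and 1364 met the rule, and they are called members below. The members fell into 449 young, 444 aged and 471 aged D+Q barcodes. All 3 libraries came from kidneys of male mice: a young group aged 3 to 4 months, an aged group of 20 months given vehicle, and an aged group of 20 months given D+Q, the usual short name of the senolytic pair dasatinib and quercetin. Tissue was dissociated with collagenase II, strained and freed of red cells by lysis, and 3′ libraries were made on the MobiCube droplet platform. Each group was 1 library, and the sources used here do not say how many mice it held. Differences between groups therefore lack any check against replicates, and none was tested. The intervals given are 95% exact intervals that cover counting error only.

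The 6 genes have known roles of several kinds. *Slc34a2* encodes NaPi-IIb, the sodium-phosphate cotransporter of intestine and lung, whereas the proximal tubule of the kidney takes up phosphate mainly through its relative *Slc34a1*. *Grik1* encodes a subunit of kainate-type glutamate receptors, and *Klhl14* a Kelch-like protein that binds torsin A. *Creb5* encodes a cAMP response element binding factor of the ATF family, *Ube2cbp* (also *Ube3d*) a ubiquitin ligase, and *Usp29* a ubiquitin peptidase of the imprinted *Peg3* domain that is expressed from the paternal allele. In a nephron, each segment is normally told by its own transporters, such as *Slc34a1* and *Lrp2* in the proximal tubule, *Slc12a1* and *Umod* in the thick ascending limb and *Slc12a3* in the distal convoluted tubule, and a cell of 1 segment carries the markers of that segment.

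Total counts were 24346733 for the young library, 13944270 for the aged and 21058975 for the aged D+Q library, and the lowest barcode total in any was 1416. Members were neither deeper nor shallower than the rest. Their median total was 2426, 2035 and 2178 counts (values in this order are young, aged and aged D+Q throughout), against 2404, 1880 and 2312 in the other barcodes within the mitochondrial limit. After thinning each barcode to 1000 UMIs, members held a median of 668, 693 and 678 genes and the others 625, 655 and 629. Between 28 and 38 barcode sequences were shared by any pair of libraries, and 0 of them were members in both. Doublet scores from Scrublet had a lower median in members (0.0246, 0.0531 and 0.0272) than in the others (0.0580, 0.0642 and 0.0582), while 16.5%, 15.8% and 15.9% of members lay above the score quantile of the expected doublet rate, against 5.42%, 3.16% and 5.24% of the others. The automatic threshold of Scrublet marked 2, 0 and 1 barcodes and had therefore not worked, so no barcode was removed.

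Members made up 5.46% (4.97 to 5.97) of the young barcodes. The aged library held 7.47% members (6.81 to 8.17) and the aged D+Q library 5.97% (5.46 to 6.52). The aged share was the highest and its interval did not overlap the other intervals, which overlapped each other. With 1 library a group this order cannot be set against the spread between mice. When at least 3 of the genes were required, the shares were 4.92%, 6.32% and 5.30%, and the order was the same.

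The levels of the 6 genes chose the members and are given as a description. *Usp29* (ENSMUSG00000051527) led, at 4268, 4943 and 4105 CPM (counts scaled to a common total) in members against 8.90, 12.0 and 6.65 in the other barcodes. *Ube2cbp* (ENSMUSG00000032415) followed with 1854, 1818 and 3643 CPM, against 7.81, 10.3 and 11.8. Both were found in nearly every member: *Usp29* in 96.2%, 95.9% and 95.8%, and *Ube2cbp* in 93.8%, 94.8% and 95.8%. The other 4 genes were lower, each with a median of 1 UMI per member. *Slc34a2* (ENSMUSG00000029188) stood at 414, 400 and 728 CPM in members and at 1.32, 1.03 and 1.69 in the others. *Creb5* (ENSMUSG00000053007) stood at 509, 545 and 640 CPM in members and at 4.63, 4.26 and 4.30 in the others. *Grik1* (ENSMUSG00000022935) stood at 440, 412 and 519 CPM, and at 1.18, 1.18 and 1.64 in the others. *Klhl14* (ENSMUSG00000042514) stood at 518, 531 and 654 CPM, and at 6.54, 5.36 and 5.88 in the others. These 4 genes were detected in between 53.8% and 72.6% of the members of a library. The label of the cells names *Slc34a2*, *Grik1* and *Klhl14*, each of which lay below *Usp29* and *Ube2cbp* in every library. From 83.7% to 97.4% of all UMIs of each gene within the mitochondrial limit lay in members.

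**Figure D1:**
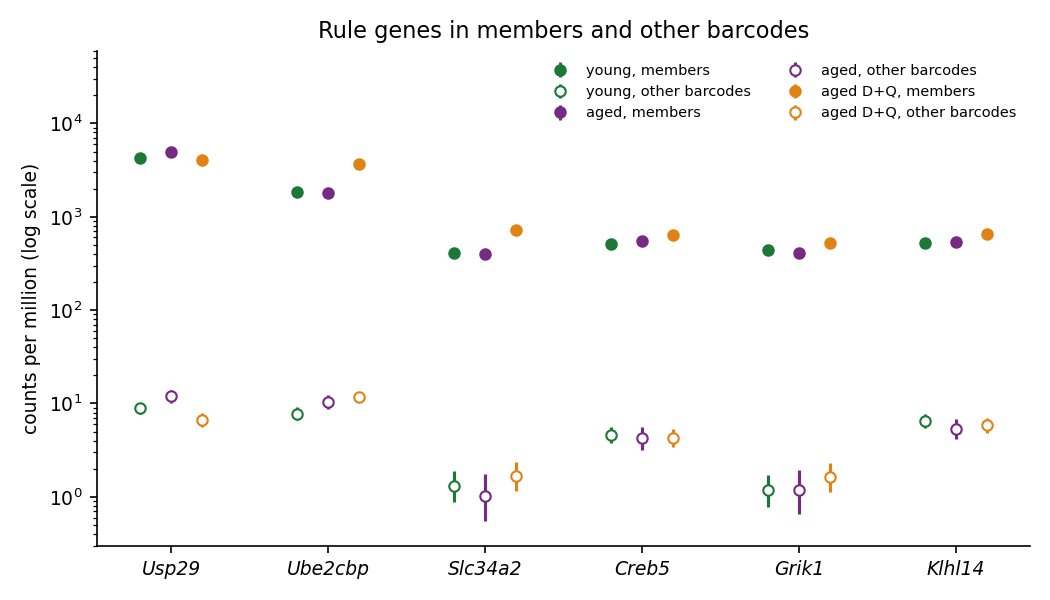
Level of the 6 rule genes (x axis) in CPM on a log scale (y axis) in each library, for members (filled) and other barcodes (open), with 95% exact Poisson intervals that are narrower than the symbol for most points. *Usp29* and *Ube2cbp* lie above the other 4 genes in members, and *Ube2cbp* is at 3643 CPM in aged D+Q members against 1818 in aged.

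The number of rule genes per member is a description, as the rule itself asks for at least 2 of them. All 6 were detected in 141 young, 91 aged and 138 aged D+Q members, and at least 4 in 356, 313 and 376, or 79.3%, 70.5% and 79.8% of members. The median member held 24, 21 and 25 UMIs of the 6 genes, with a range from 2 up to 178, 82 and 110. A minority was at the edge of the rule: 25 young, 20 aged and 35 aged D+Q members held just 2 UMIs of 2 genes. Just outside, 584, 387 and 526 barcodes held 1 UMI, and 35, 18 and 43 held several UMIs of 1 gene only. Members at the edge were unlike the bulk in a further respect. Mitochondrial counts had a median of 4.97%, 2.89% and 6.10% in those with 2 UMIs and of 17.3%, 14.9% and 16.6% in those with at least 4 rule genes.

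When all barcodes were clustered without the 6 genes, 1183 of the 1364 members (86.7%) fell into 1 of 26 clusters, number 13. This cluster held 1191 barcodes, so 99.3% of it were members. It took up 396 of the young, 374 of the aged and 413 of the aged D+Q members, and all 3 libraries contributed to it. Clustered alone, the young, aged and aged D+Q libraries placed 73.1%, 85.1% and 87.3% of their members into a single cluster. The other 181 members were scattered over 24 clusters, with 37 in cluster 6, 36 in cluster 1 and no more than 13 in any other. Of these scattered members 25 had at least 4 rule genes, against 1020 of those in cluster 13. The cluster stays without a cell type name here, because its leading 10 genes were *Cyp2c39*, *Agr3*, *Tbx4*, *Or5aq6*, *Krt12*, *Naa11*, *Trim42*, *Serpinb7*, *Nmur2* and *Mc1r*, none of them a marker of a kidney cell type in the lists used.

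Many more genes than the 6 set the members apart, and as the members were chosen on genes of the same cells these counts are a description. Genes were kept with at least 30 counts over all members or 100 CPM in the others, and all of the 11823 kept had passed by their member counts. At the level of the other barcodes, 1762 of them would not have reached 30 counts in members, among them 1284 of the 1650 and 863 of the 900 genes given next, so the filter favours genes that are high in members and sets part of the balance of higher and lower genes. Of the 11823 genes, 1886 (16%) were at least 2-fold higher in young members than in the other young barcodes, 1933 (16.3%) in aged and 2039 (17.2%) in aged D+Q. In all 3 libraries 1650 (14%) were at least 2-fold higher and 900 (7.61%) at least 8-fold higher. Genes at least 2-fold lower numbered 152 (1.29%), 170 (1.44%) and 492 (4.16%) in the single libraries, and 17 (0.144%) in all 3. The median log2 ratio over all these genes was near 0 (0.01, -0.01 and 0.01). TMM scaling moved all log2 ratios by -0.14, -0.19 and -0.17 and gave 1772, 1736 and 1823 higher and 317, 415 and 967 lower genes, so ratios within this shift of 0 have no settled direction. The number of lower genes in all 3 libraries was 246 with members limited to at least 4 rule genes.

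The same genes led in each library. Genes at least 8-fold higher in the members of 2 libraries, leaving out mitochondrial and rule genes, were taken as leading genes for the library not used: 964 genes for young, 931 for aged and 915 for aged D+Q. Of them 93.0%, 96.3% and 98.0% were also at least 8-fold higher in the members of the library left out. The filter summed member counts over all 3 libraries, the one left out among them. These percentages are therefore a description and not a separate check. The leading genes took up 5.28%, 5.49% and 5.88% of member counts and 0.207%, 0.191% and 0.173% of the counts of the others. Per barcode, the median share was 7.14%, 6.83% and 6.58% in members and 0.165%, 0.144% and 0.130% in the others. A share of at least 2% was reached by 378, 351 and 397 members and by 3, 3 and 2 of the other barcodes. The members below 2% numbered 71, 93 and 74. Members detected by 2 rule genes had medians of 0.285%, 1.07% and 0.396%, and those with all 6 had 8.09%, 9.55% and 9.03%. In other barcodes with under 5% mitochondrial counts the medians were 0.174%, 0.159% and 0.138%. They were 0.178%, 0.122% and 0.144% in those with 10% to 25% and 0.0837%, 0.0702% and 0.0609% in those with 25% to 50%. Members with 10% to 25% had medians of 7.61%, 8.90% and 7.12%, and those with under 5% had 0.265%, 0.839% and 0.461%.

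**Figure D2:**
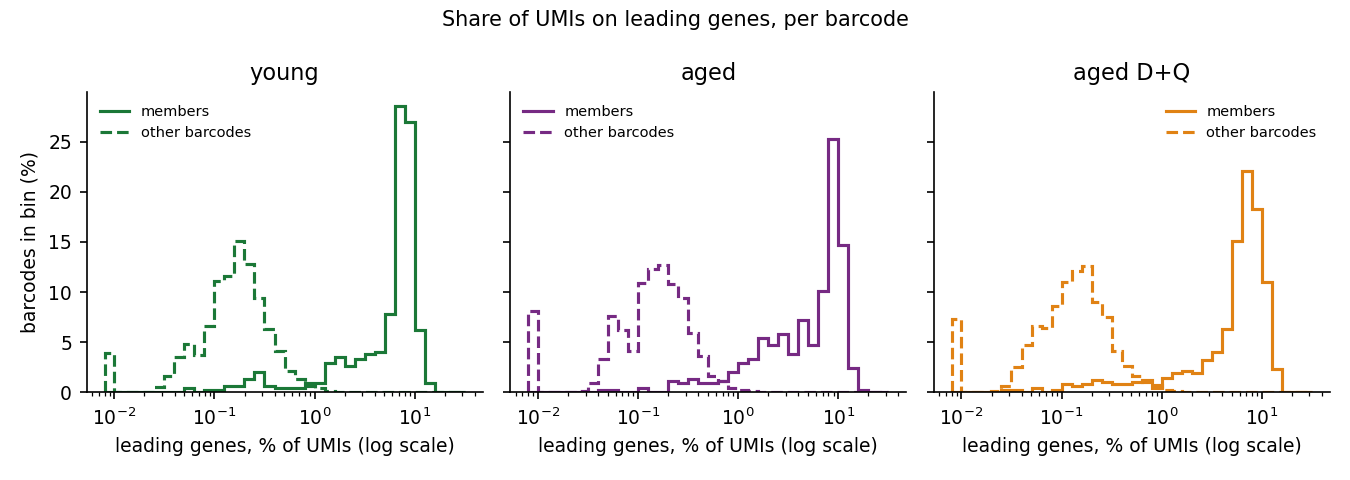
Share of a barcode's UMIs on the leading genes chosen in the 2 other libraries (x axis, log scale, with barcodes below 0.01% in the leftmost bin) against the percentage of barcodes per bin (y axis), for members (solid) and other barcodes (dashed) of each library. The main peaks are apart, with medians of 7.14% and 0.165% in young, and a lower tail of members reaches into the range of the other barcodes.

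The 20 genes with the highest ratios in all libraries are known from tissues as different as testis, cornea, skin and sensory epithelia. Among transcription factors, *Tbx4*, a T-box factor of limb and lung mesenchyme, had 71, 69 and 55 counts in members and 0, 2 and 2 in the far more numerous other barcodes. *Rfx6*, a factor of pancreatic endocrine cells, had 82, 76 and 95 counts in members and 5, 0 and 2 in the others. *Zfp541*, a zinc finger protein of male meiosis, had 96, 97 and 104 against 2, 4 and 7. These genes were ranked by their ratio in the same cells, so that members held nearly all their counts follows from the choice and is a description.

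Receptors formed a second set. *Mc1r*, the melanocortin receptor of pigment cells, had 240, 224 and 313 counts in members and 11, 8 and 5 in the others, a log2 ratio of CPM of 8.34, 8.23 and 9.88. *Gfra2*, the co-receptor of neurturin, had 125, 129 and 85 counts against 7, 5 and 5. *Nmur2*, a neuromedin U receptor, had 41, 25 and 20 against 0, 0 and 1. The chemosensory receptors *Or2ag1b* (196, 160 and 191 counts against 7, 5 and 4) and *Vmn2r103* (102, 85 and 90 against 3, 2 and 4) were of the same kind. A single UMI of *Mc1r* or more was found in 37.0% of young members.

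The other 12 genes were of mixed kinds. *Smr2l*, of a salivary protein family, had 211, 145 and 192 counts in members against 9, 5 and 12, and *Cfhr4*, related to complement factor H, had 197, 160 and 162 against 10, 4 and 9. The corneal keratin *Krt12* had 29, 16 and 38 counts against 1, 0 and 1. The serpin *Serpinb7*, *Bpifb5* and the protein disulfide isomerase relative *Agr3* each had between 32 and 61 counts in the members of a library and at most 2 in its other barcodes. *Rasgrf1*, an exchange factor for Ras that is best known from neurons, had 257, 195 and 234 counts against 12, 4 and 8, and *Naa11*, an acetyltransferase subunit of testis, 174, 128 and 157 against 7, 2 and 4. The remaining genes, *Cyp2c39*, *Dynlt5*, *Eif1ad13* and *Loxhd1*, had between 9 and 55 counts in the members of a library and at most 1 in the others. *Or2ag1b*, *Vmn2r103*, *Smr2l*, *Cfhr4*, *Cyp2c39* and *Bpifb5* belong to families of near-identical genes, so that which member of a family the reads came from is uncertain.

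More abundant genes also separated the members, here named after their values were seen. *Myo3a*, an unconventional myosin of hair cells, stood at a log2 ratio of 4.52, 4.65 and 4.68, with a UMI in 89.8% of young members. *Stard13*, a GTPase activating protein, was at 3.74, 3.92 and 4.06, and *Lars2*, the mitochondrial leucyl-tRNA synthetase, at 3.79, 4.09 and 3.86. *Camk1d*, a calcium-calmodulin kinase, was at 3.24, 3.36 and 3.33. The ratios of each of these genes differed by less than 0.4 between the 3 libraries.

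The 900 genes at least 8-fold higher differed in annotation from all genes tested, with the same filter behind both. In the GENCODE M21 mouse annotation, which held 873 of them, 59.2% were protein coding, 24.2% long intergenic RNAs and 13.3% antisense RNAs. Among all tested genes, those shares were 91.0%, 3.60% and 3.63%. Provisional names were carried by 43.7% against 10.4%. The median span of their gene models was 54.6 kb against 30.6 kb. Olfactory and vomeronasal receptors were mostly too low to be tested, and 19 of the 21 that were had passed only through their level in members. Summed over all 1549 such receptors in the files, members held 739 (695 to 785), 743 (693 to 795) and 773 (724 to 825) CPM, and the other barcodes 152, 144 and 130. The sources used here do not say whether reads were counted by strand, so antisense genes cannot be told apart from the genes they overlap.

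Mitochondrially encoded RNA was higher in members, but unequally so. The 13 genes summed to 134110, 109748 and 140612 CPM in members and to 86832, 64226 and 86382 in the others. Over barcodes, the median mitochondrial share was 17.0%, 14.0% and 16.3% in members against 5.80%, 4.23% and 5.78% in the others. *mt-Nd6*, the only protein-coding gene on the light strand, stood at 1351, 837 and 1196 CPM in members and at 61.5, 30.5 and 47.9 in the others, a log2 ratio of 4.46, 4.78 and 4.64. *mt-Nd4l* was at 4.07, 3.95 and 4.10 and *mt-Atp8* at 3.89, 3.73 and 3.84. The partners with which these genes share an mRNA, *mt-Nd4* and *mt-Atp6*, were at 0.67, 0.74 and 0.73 and at 0.32, 0.51 and 0.37. *mt-Nd5* lay between them at 2.34, 2.26 and 2.31. The order of the leading 4 genes was the same in all 3 libraries. The 18 nuclear-encoded genes of the respiratory chain had median log2 ratios of 0.25, 0.12 and 0.36, and 0 of them was at least 2-fold higher in any library.

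**Figure D3:**
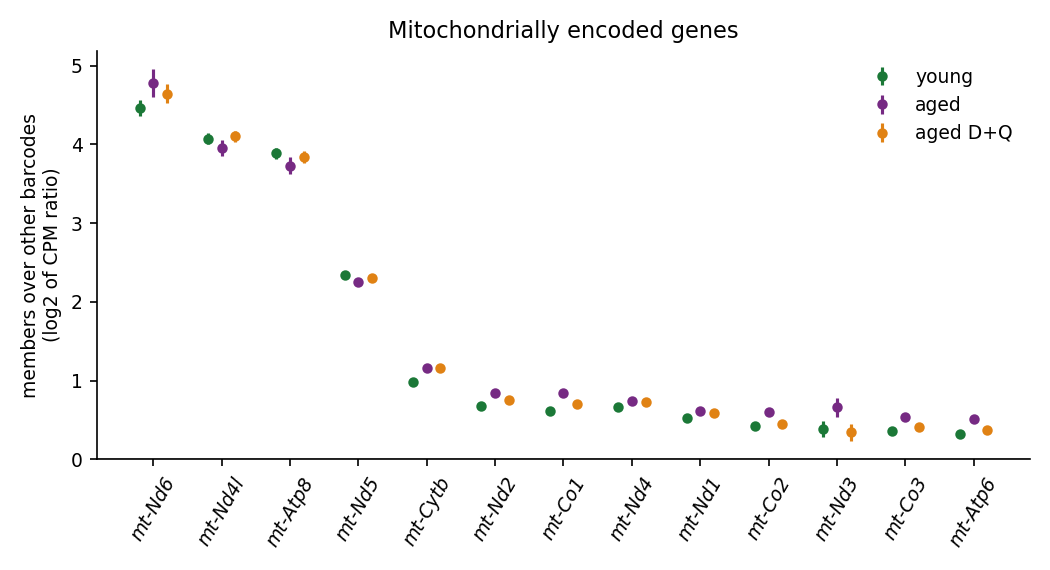
Log2 ratio of CPM between members and other barcodes (y axis) for the 13 mitochondrially encoded genes (x axis), with 95% exact intervals from the counts. *mt-Nd6*, *mt-Nd4l* and *mt-Atp8* lie at 3.73 or above in every library and the other genes, except *mt-Nd5* and *mt-Cytb*, at 0.85 or below.

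The genes lower in members were led in abundance by *Malat1*, a long non-coding RNA retained in the nucleus. Its log2 ratio was -1.32, -1.04 and -1.31. At 1000 UMIs per barcode, members held a mean of 60.2, 62.8 and 52.1 *Malat1* UMIs and the other barcodes 160, 138 and 147. In members with at least 4 rule genes the mean was 48.0, 48.7 and 40.1. *Neat1*, another nuclear RNA that was picked after its values were seen, was at -0.17, -0.17 and -0.09. Of the other lower genes, 3 act in splicing: *Prpf4b*, a kinase of the spliceosome, at -1.20, -1.29 and -1.18, *Pnn*, a nuclear speckle protein, at -1.02, -1.16 and -1.08, and *Rnpc3*, of the minor spliceosome, at -1.47, -1.05 and -1.55. *Gstt2*, a glutathione transferase, *Gnl3*, the nucleolar protein nucleostemin, *Ncapd3*, a condensin subunit, and *Ralgps2*, *Fam133b* and *Lyrm2* completed the 10 lowest, between -1.02 and -1.60.

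Markers of the nephron gave no single segment. Proximal tubule markers summed to 31752, 29744 and 33719 CPM in members and to 26046, 24898 and 26644 in the others. Thick ascending limb markers summed to 4707, 4265 and 5251 CPM against 3037, 2513 and 2956, and connecting tubule markers to 2481, 1849 and 2600 against 1445, 1153 and 1372. All of these were above the level of the other barcodes by less than 2-fold. Distal convoluted tubule markers stood at 889, 1150 and 885 CPM against 882, 946 and 826. The proximal S1 list was below the others at log2 ratios of -0.14, -0.28 and -0.51, and the proximal S3 list at -0.32, -0.52 and -0.32. The pan-epithelial list, with *Epcam*, *Cdh1* and *Cdh16*, stood at 798, 953 and 839 CPM against 778, 1054 and 785, close to the level of the other barcodes. It stood at 845 CPM in cluster 13 and at 755 in cluster 1, the highest for endothelial markers. This list thus set epithelial and endothelial barcodes little apart and cannot decide on the label of these cells as epithelial. They are called by the genes that chose them.

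Single markers did not all follow the summed lists. *Slc34a1*, the proximal phosphate cotransporter, had log2 ratios of -0.14, -0.21 and -0.28, and *Kap*, a kidney androgen-regulated gene of the proximal tubule, 0.65, 0.60 and 0.69. *Umod*, the uromodulin gene of the thick ascending limb, had 0.85, 1.02 and 1.08. *Cldn16*, a claudin for magnesium uptake in that limb, was higher, at 4.14, 4.17 and 4.12. The co-expressed limb genes *Slc12a1* (0.31, 0.53 and 0.41) and *Umod* did not reach the level of *Cldn16*. Of the 10 limb markers 3 were at least 2-fold higher in all 3 libraries, against 14% of all tested genes. In single libraries 3, 5 and 6 of them were, and their medians were 0.83, 0.85 and 1.15. Of the 5 connecting tubule markers 2 were higher in all 3 libraries, with medians of 0.61, 0.67 and 0.90.

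**Figure D4:**
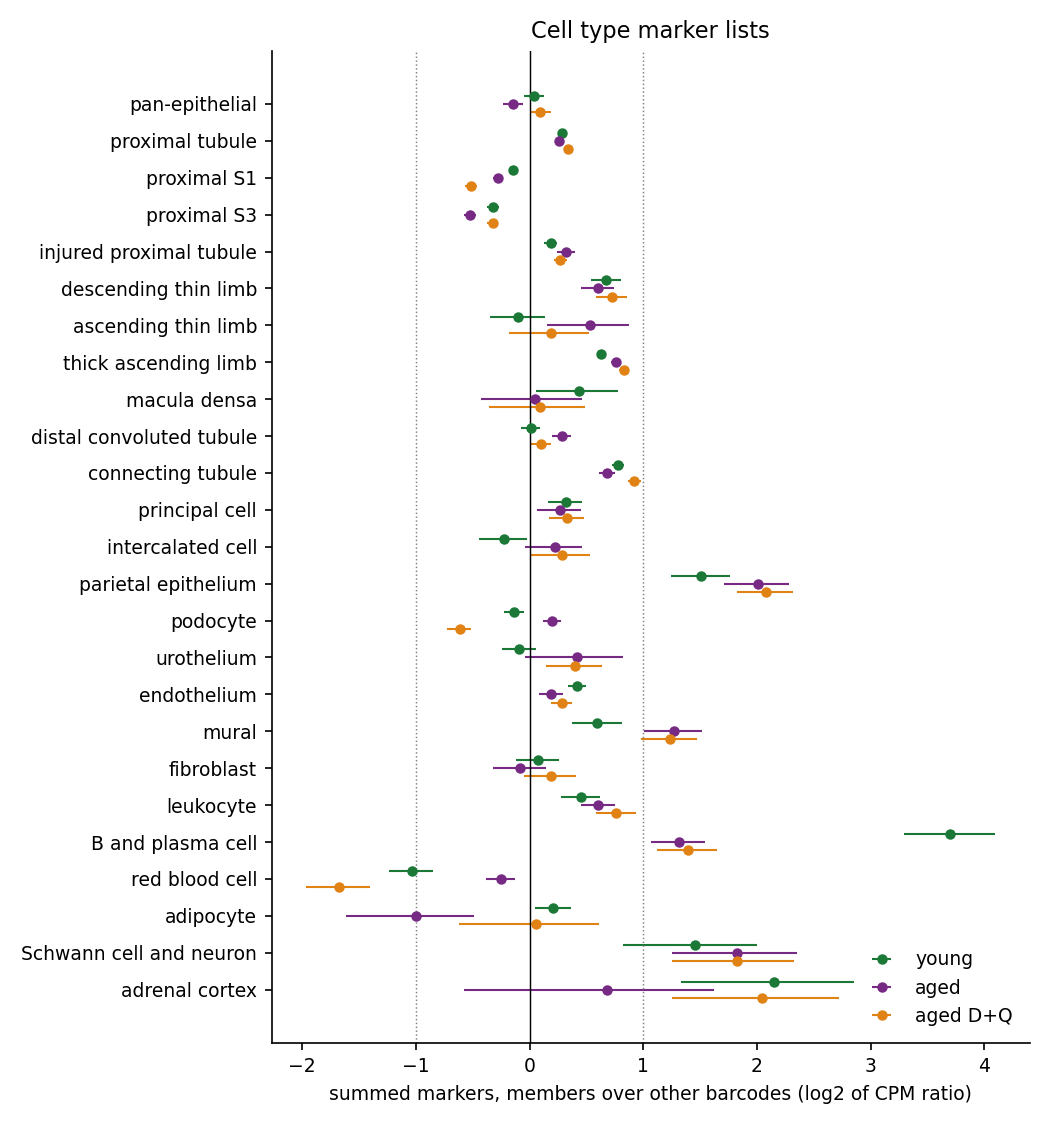
Log2 ratio of summed CPM between members and other barcodes (x axis) for 25 cell type marker lists (y axis), 1 point per library with 95% exact intervals, and dotted lines at 2-fold. Tubule lists lie within 2-fold of the other barcodes, and the parietal epithelium, B and plasma cell, and Schwann cell and neuron lists lie above 2-fold in each library.

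For lists of single segments, the clusters with the highest level held several times that of the members' cluster. Cluster 13 held 4674 CPM of thick ascending limb markers, against 21143 in cluster 4 and 20003 in cluster 17, the clusters with the highest level. For the distal convoluted tubule list it held 934 CPM against 11209 in cluster 12, and for the connecting tubule list 2564 against 14131 in cluster 18. The proximal S1 list stood at 3116 CPM against 15611 in cluster 23, and the S3 list at 2736 against 9539 in cluster 0. The general proximal list was at 35041 CPM, lower than in clusters 16 (59667), 2 (52960) and 20 (39733). Of these, cluster 2 had a median of 38.6% mitochondrial counts and cluster 20 was led by haemoglobin genes. The level in cluster 13 was above that in clusters 23 (21379) and 0 (24818), the highest for the S1 and S3 lists. It was also above that in cluster 5 (32257), led by *Cyp4a14*. Cluster 13 was not the highest of the 26 clusters for any of these tubule lists.

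Markers of several segments were detected in the members. Thinned to 1000 UMIs, 50.3%, 47.5% and 49.7% of members had a UMI of *Slc12a1* and 83.5%, 79.3% and 86.0% one of *Umod*. In the other barcodes, those shares were 23.8%, 19.7% and 21.9% and 46.7%, 41.4% and 51.6%. *Slc12a3* was found in 38.8%, 46.2% and 37.2% of members against 16%, 15% and 13.6%. Its mean was 0.588, 0.809 and 0.605 UMIs in members against 0.613, 0.565 and 0.583. The mean was thus higher in aged and aged D+Q members and lower in young members, with no interval taken for these means. Without thinning, *Slc12a1* was found in 77.1%, 70.0% and 76.9% of members and 37.9%, 28.7% and 35.3% of the others. Free RNA gives UMIs in barcodes whose cells lack a gene, so the same shares were taken in other barcodes of cluster 1, the highest for endothelial markers, which should lack these transcripts. There, *Slc12a1* was found in 38.2%, 39.2% and 35.9%, *Umod* in 55.1%, 49.9% and 55.0% and *Slc12a3* in 22.2%, 31.2% and 17.1% of barcodes, at median totals of 2794, 2651 and 2669. In cluster 7, the highest for podocyte markers, with 50, 28 and 21 such barcodes, *Slc12a1* was found in 38%, 46.4% and 23.8%, *Umod* in 68%, 64.3% and 38.1% and *Slc12a3* in 26%, 21.4% and 19%. The member shares lay above those of cluster 1 in each library, while the aged share of *Slc12a1*, 47.5%, was close to the 46.4% of cluster 7. The summed lists did not all follow. The distal convoluted tubule list was lower in cluster 13 than in cluster 1, at 934 against 1124 CPM. The thick ascending limb list stood at 4674 against 4062 CPM and the connecting tubule list at 2564 against 1191. How much of the share in members came from free RNA was not tested.

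The spread of these markers from barcode to barcode was smaller in members than in the others. The others pool many clusters, among them those highest for each list, which widens their spread. No single cluster was compared, so a smaller spread cannot be called particular to the members. The ratio of variance to mean, which is 1 for counts that vary by sampling alone, was 1.23, 1.70 and 1.15 for connecting tubule markers in members with at least 4 rule genes and 20.9, 18.0 and 24.7 in the other barcodes. For thick ascending limb markers it was 2.16, 3.01 and 1.65 against 13.2, 10.1 and 15.1. For distal convoluted tubule markers it was 1.08, 1.37 and 2.04 against 10.6, 9.16 and 10.7, and for endothelial markers 2.01, 1.34 and 1.71 against 5.78, 4.26 and 6.88. Podocyte markers in aged members were the exception, at 15 against 6.38. Limiting the members to at least 4 rule genes was chosen after seeing the data. Over all members the ratios were further from 1: 4.05, 3.35 and 3.04 for connecting tubule markers, 3.14, 3.51 and 3.71 for thick ascending limb markers and 3.56, 3.13 and 4.41 for *Slc12a1*, against 8.54, 7.85 and 10.7 for *Slc12a1* in the others.

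**Figure D5:**
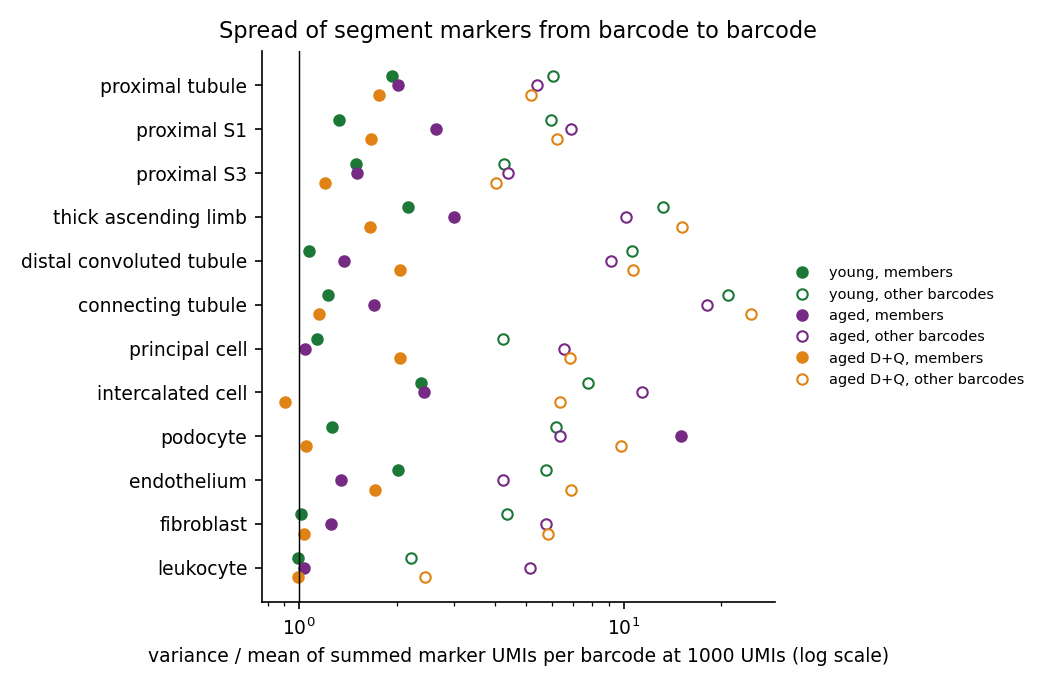
Variance divided by mean of the summed marker UMIs per barcode at 1000 UMIs (x axis, log scale) for 12 marker lists (y axis), in members with at least 4 rule genes (filled) and other barcodes (open) of each library. The line at 1 is the value for counts that vary by sampling alone. Members lie nearer to it than other barcodes, which pool many clusters, except for podocyte markers in aged, at 15 against 6.38.

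Lists of other cell types were at least 2-fold higher in members for 4, 4 and 5 lists of the 25 with counts to compare. Each of them rested on few genes. The B and plasma cell list stood at 68.8, 159 and 118 CPM against 5.31, 64.2 and 45.0, led by *Ms4a1*, the gene of CD20, at log2 ratios of 5.37, 4.32 and 6.71. The parietal epithelium list stood at 105, 124 and 149 CPM against 36.9, 30.9 and 35.4, led by the adhesion gene *Ncam1* at 3.08, 4.07 and 3.74, whereas *Cldn1* was at -0.13, 0.01 and 0.86. In the mural list *Myh11*, a smooth muscle myosin, was at 2.73, 3.55 and 4.08, and *Tagln* at 1.92, 2.86 and 2.47. The podocyte list as a whole was at -0.14, 0.20 and -0.61, but its transcription factor *Wt1* was at 4.20, 4.32 and 4.47. The Schwann cell and neuron list had *Cdh19* and the adrenal cortex list *Star* as the only gene with enough counts to be tested. Endothelial, fibroblast and leukocyte lists lay within 2-fold. The red blood cell list was lower, at 162, 473 and 92.3 CPM against 333, 563 and 295. *Th* and *Dbh* of the adrenal medulla and *Sftpc*, *Sftpb* and *Sftpa1* of alveolar type 2 cells had 0 counts in members, and *Slc34a2*, which lung type 2 cells also express, came without them.

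Gene groups related to the 6 genes were examined next, in lists chosen with earlier results of these data known. Summed over all 18 ionotropic glutamate receptor genes of the list in the files, members held 1417, 1501 and 1738 CPM and the other barcodes 237, 298 and 280. Of these genes 11 passed the filter, 6 of them only through their level in members, so no count is given. *Gria1* was at 7.19, 7.08 and 7.27, *Grik2* at 6.54, 6.16 and 7.09, *Grin2b* at 4.59, 4.97 and 4.52 and *Gria4* at 3.84, 3.93 and 4.26. These genes encode AMPA, kainate and NMDA receptor subunits. The 32 adhesion genes of neuronal type summed to 4852, 5906 and 5309 CPM in members and to 1933, 2758 and 2555 in the others. Of these, 29 passed the filter, 10 only through their level in members. *Opcml* was at 6.57, 6.74 and 6.29, *Cntnap2* at 5.99, 6.31 and 6.53, *Csmd3* at 5.51, 5.91 and 6.09 and *Lrrc4c* at 5.71, 5.17 and 5.65.

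In groups related to the other rule genes, the counts are given beside the 14% of all tested genes that were at least 2-fold higher in all 3 libraries. The filter favours genes high in members in both, so these counts are a description. Of 12 measured phosphate handling genes, 1 was at least 2-fold higher, the phosphatase gene *Alpl* at 1.20, 1.30 and 1.36, and the medians were 0.19, -0.05 and -0.17. Of 21 genes for Kelch-like proteins, cullin 3 and torsins, 2 were higher, *Klhl1* at 5.11, 6.01 and 5.36 and *Klhl29* at 1.01, 1.28 and 1.24. Of 16 CREB, ATF and AP-1 factors, 0 were higher in all 3 libraries and the medians were -0.09, -0.23 and -0.25. Of 9 imprinted genes, 1 was higher, *Sgce*, at 1.5, 1.94 and 1.37. The antisense RNA *Kcnq1ot1* was at -0.62, -0.43 and -0.81.

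Groups of kidney identity, signalling and injury were described in the same way. Of 30 nephron transcription factors, 4 were at least 2-fold higher in all 3 libraries, *Wt1*, *Esrrb* at 1.69, 2.01 and 1.14, *Grhl2* at 1.26, 2.16 and 1.99 and *Tfap2a* at 1.14, 1.74 and 1.89, and the medians were -0.13, -0.06 and -0.11. The WNT, Notch and planar polarity list summed to 1016, 1026 and 995 CPM in members and 455, 453 and 435 in the others. Of its 12 measured genes 2 were at least 2-fold higher in all 3 libraries, the stem cell receptor *Lgr5* at 5.04, 4.84 and 5.49 and *Notch1* at 4.33, 4.37 and 4.10. The medians of these 12 genes were 0.18, 0.34 and 0.44. Of 15 injury and repair genes, 1 was higher, the adhesion gene *Vcam1* at 2.91, 2.78 and 3.01, and *Krt18* was at -0.26, -1.87 and -0.07. Of 15 kinases that dasatinib inhibits, 2 were higher, *Lck* at 4.56, 3.46 and 5.27 and *Fyn* at 1.33, 1.70 and 1.44. Of 10 measured genes for cell cycle arrest and senescence, 0 were at least 2-fold higher or lower in any library, and *Cdkn2a* and *Il6* had 0 counts in members. The medians of these 10 genes were 0.02, -0.003 and -0.42. Fatty acid oxidation genes had medians of -0.12, -0.06 and 0.07, with *Cpt2* at 1.12, 1.18 and 1.53 the single higher gene of 20. For each group, the count of higher genes stands beside the 14% over all genes tested, and both are a description. The filter favours genes high in members, and how many genes of each group passed only that way is not given here.

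Libraries were compared within the members next. In aged against young members 233 genes (1.97%) were at least 2-fold higher and 264 (2.23%) lower, against 1.5% and 1.81% in the other barcodes. With an interval that also excluded 1.5-fold, 40 (0.338%) were higher and 51 (0.431%) lower in members, against 0.812% and 0.888% in the others, which hold far more counts. The 897 leading genes, chosen for being high in all 3 libraries, had 2 and 1 of these, *Vsnl1*, a neuronal calcium sensor (4 counts in young and 15 in aged), and *5430440P10Rik* (7 and 21) as higher and *A530064D06Rik* (22 and 3) as lower. These 3 genes are named because they were few. The 6 rule genes had log2 ratios between -0.10 and 0.21, the highest for *Usp29*.

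The genes that differed most with age in members were those that differed in the rest of the library. *Slpi*, a secreted protease inhibitor, had 3, 113 and 6 counts in members, a log2 ratio of 5.37 (4.01 to 7.89) for aged against young, and the other barcodes had 4.92. The 113 counts lay in 36 members. *Slc7a12*, an amino acid transporter, was at 3.81 (2.36 to 6.36) in members and 5.81 in the others, *Lyz2*, the macrophage lysozyme, at 3.30 and 2.16, *Zfp951* at 2.39 and 1.5, and *Cyp2d12*, a cytochrome P450, at 2.21 and 2.26. The lowest with age were *Psca* at -4.69 (-8.07 to -3.10) in members and -5.05 in the others, *Krt18* at -4.63 (-10.53 to -2.65) and -3.02, and *Ly6d* at -4.11 (-6.64 to -2.73) and -4.35. These genes had 2, 1 and 3 counts in aged members. *Cfd* was at -3.89 in members and -2.19 in the others, and *Upk3a* at -3.84 and -5.80. *Psca* and *Upk3a* are urothelial genes, and *Cfd* is an adipocyte gene. Of the 40 and 51 genes, 40 and 49 had the same direction in the other barcodes, and 27 and 30 met the same criteria there, or 67.5% and 58.8% of the member genes and 28.1% and 28.6% of those of the other barcodes. The direction in members was therefore that of the whole library for nearly all of these genes.

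The urothelium and adipocyte marker lists showed this too. The urothelium list stood at 281, 46.7 and 123 CPM in members and at 299, 35.2 and 93.4 in the other barcodes. The adipocyte list stood at 249, 26.0 and 21.2 CPM in members and at 216, 52.8 and 20.8 in the others. The level of the urothelium and adipocyte lists in members thus followed the library the members came from. Not every list did so. The mural list stood at 133, 144 and 136 CPM in members and at 88.0, 60.1 and 57.8 in the others. The part of the urothelium and adipocyte lists in the other differences between libraries was not tested.

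In aged D+Q against aged members, a comparison that shares the aged library with the one above, 237 genes (2%) were at least 2-fold higher and 277 (2.34%) lower, against 0.863% and 1.26% in the other barcodes. With an interval that excluded 1.5-fold, the counts were 20 (0.169%) and 40 (0.338%), against 0.279% and 0.304%. Of the rule genes, *Ube2cbp* stood at a log2 ratio of 1.00 (0.93 to 1.08) and *Slc34a2* at 0.86 (0.70 to 1.03), and *Usp29* at -0.27 (-0.32 to -0.21). In the other barcodes, *Ube2cbp* was at 0.19 (-0.12 to 0.51), *Slc34a2* at 0.69 (-0.25 to 1.77) and *Usp29* at -0.85 (-1.20 to -0.50). These genes chose the members, so their values are given with no comparison drawn between the libraries.

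Genes named for D+Q against aged had low counts. *Krt18* had 1 count in aged and 20 in aged D+Q members (interval of the log2 ratio 1.59 to 9.61) and was at 1.88 in the others. *Psca* was at 3.48 (1.79 to 6.89) in members and 3.30 in the others, *Cyp26b1*, a retinoic acid hydroxylase, at 2.64 (0.83 to 6.08) and 1.07, *Upk3a* at 2.58 and 3.87, and *Plppr1* at 2.17 and 0.57. The lowest were *Slpi* (-4.21 and -4.07), the immediate early gene *Fos* at -3.36 (-9.29 to -1.17) and -2.66, the phosphodiesterase gene *Pde11a* at -3.12 (-6.55 to -1.36) and -0.76, *Lyz2* (-2.91 and -2.65) and *Reck*, a matrix protease inhibitor (-2.20 and -0.30). *Plppr1* had 4 counts in aged and 21 in aged D+Q members, *Pde11a* 20 and 2, *Cyp26b1* 2 and 16 and *Reck* 19 and 4. Of the 20 higher and 40 lower genes, 19 and 34 had the same direction in the other barcodes and 11 and 9 met the same criteria there, or 55.0% and 22.5% of the member genes and 33.3% and 25% of those of the other barcodes. Whether members and other barcodes differed in their response could not be tested with 1 library a group. Of the 897 leading genes, *Gm15350* (48 counts in aged and 145 in aged D+Q) and *Cc2d2b* (65 and 147) were higher and *Gng7*, a G protein subunit (43 and 14), was lower, here too named because they were few.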

How the data were processed

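The authors deposited, per library, a matrix of raw UMI counts per gene and barcode (33696 genes). GRCm39 and mm10 both appear in the submitters' processing notes with no role, hence no coordinate is printed. The aligner and the barcode filter were not named in the sources used here. The members, gene lists and tests were chosen with earlier results of these data known. Members were found by rule, counts were summed per library over members and over other barcodes, and scaled to CPM. Ratios used a prior of 0.5 counts and exact conditional binomial intervals, levels exact Poisson intervals, and shares Clopper-Pearson intervals, all at 95% (scipy 1.17.1). They cover counting error only. Named genes were the 20 highest and 10 lowest in all libraries, the 5 highest and 5 lowest per comparison of libraries whose interval excluded 1.5-fold, and up to 4 per list, leaving out mitochondrial, ribosomal, haemoglobin, immunoglobulin, sex-linked and provisional names. Thinning drew 1000 UMIs per barcode and left out none. Clustering used scanpy 1.11.5 (2000 variable genes, 30 components, 15 neighbours, Leiden resolution 1) without the rule genes. Of 520 list symbols 518 were in the files. TMM factors came from edgeR 4.0.16. Ratios, intervals and thinning were tested on simulated data. Doublets were scored with Scrublet and kept. Gene types came from GENCODE M21 by identifier. The UMI shares in cluster 1 were added after seeing the data. Alternatives were another mitochondrial limit, stricter rules, each rule gene left out, doublet removal, other scalings, priors and floors.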

Additional observations from a re-analysis of the deposited data

How the results depend on the processing

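Member shares were 4.92%, 6.32% and 5.30% (young, aged, aged D+Q) with at least 3 rule genes, 4.85%, 6.56% and 5.33% without barcodes above the doublet score quantile, and 4.76%, 6.53% and 5.35% after thinning to 1000 UMIs. The aged share was 6.63% without *Usp29* in the rule and 6.66% without *Ube2cbp*. The aged share was the highest under each of these. With no floor on counts, genes at least 2-fold higher in members numbered 10489, 10932 and 11003, with 8401 in all 3 libraries and 2550 at least 8-fold higher. Counts of genes at least 2-fold lower depended most on the setting. They were 674, 541 and 983 with at least 3 rule genes (152 in all 3 libraries), 758, 756 and 1135 in members with 4 or more (246), 317, 415 and 967 with TMM scaling (53), 548, 403 and 764 from means over cells (96), and 868, 856 and 1210 with no floor (47). A prior of 2 counts gave 94 in young and 98 in aged, a total without mitochondrial counts 99 in young and 10 in all 3 libraries, and leaving out doublet-scored barcodes 31 in all 3. In members, aged against young had 2722 higher and 3059 lower genes with no floor. Aged D+Q against aged had 2824 and 2729 with no floor, and 147 higher with a prior of 2 counts. The main cluster held 73.7% of members at Leiden resolution 2, 78.7% without doublet-scored barcodes and 73.1% in young alone. The causes were not tested, beyond the smaller set of genes that a floor tests. Of 960 values of named genes under an alternative 138 moved beyond their interval, of 525 list values 159, and 0 reversed. Means over cells moved the most values of named genes: 72 moved and 48 stayed. The alternatives with no mitochondrial limit and with members of 4 or more rule genes were chosen after seeing the data. No paired analysis was possible because each group was 1 library. Depth limits single genes: those with few counts in a library have wide intervals, and without replicate libraries no difference can be set against the spread between mice.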
